A study of Mus musculus with 10 samples.

Results

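The glutathione, glucuronide and sulfate transferase genes of the mouse were followed in whole lung RNA of mice with and without the gene Bpifb1. Members were the protein-coding genes of the counts table whose GENCODE M21 symbol begins with Gst and a letter of the alpha, kappa, mu, omega, pi, theta or zeta class, with Mgst (microsomal glutathione transferase), with Ugt1, Ugt2 or Ugt3 (UDP-glucuronosyltransferase), or with Sult1 to Sult6 (sulfotransferase). The rule used symbols and no measured value. It gave 67 genes of 47333 in the table, of which 21677 were protein-coding: 25 glutathione, 21 glucuronide and 21 sulfate transferase genes on 12 chromosomes, with 0 of them on chromosome 2, where Bpifb1 lies.

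RNA came from the right middle lung lobe of 10 naïve, untreated mice on the C57BL/6J background, all 12 weeks old. KO mice carry a loss of Bpifb1, whose protein is secreted onto the airway surface, and WT mice do not; the labels name no promoter, Cre or other allele. The 5 KO mice were 1 male (replicate 1) and 4 females, and the 5 WT mice were 2 males (replicates 2 and 3) and 3 females, housed in cages that held both genotypes. Each mouse gave 1 library, so the spread reported is that between mice, and replicate numbers are names that pair no animals.

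Conjugating enzymes attach a water-soluble group to reactive or fat-soluble molecules. Glutathione transferases join the peptide glutathione to electrophiles such as lipid peroxidation products and epoxides. Glucuronosyltransferases, in the endoplasmic reticulum, add glucuronic acid from UDP-glucuronate, and sulfotransferases, in the cytosol, add sulfate from the donor PAPS. These enzymes are best known from the liver. In the lung, the club cells of the airways are a recognised site of foreign compound metabolism. Several of the genes are regulated by the factor Nrf2, which binds antioxidant response elements (ARE), and by the aryl hydrocarbon receptor Ahr, which binds xenobiotic response elements (XRE).

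Libraries held 21357424 to 28321294 estimated counts, so that 3 counts, taken as the floor of detection, equalled 0.103 to 0.143 CPM (counts per 1000000 counts of the library, with library totals scaled between mice). Such floors cover counting error only. Bpifb1 itself (3617 bases of exons, chromosome 2) was at 0.217 to 1.26 CPM with the loss and at 28.1 to 79.5 CPM in each WT library. The labelled sexes matched the Y-linked genes Ddx3y, Uty, Kdm5d and Eif2s3y in the 10 libraries, but KO replicate 5, labelled female, had 1.78 CPM of the X-inactivation RNA Xist, where the other 6 females had 273 to 407. The sex differences of named genes are therefore also given without it. Lung cell markers were present as the tissue label requires: all 10 club cell, 8 alveolar type 2 and 6 alveolar type 1 markers exceeded the floor in each mouse. Hepatocyte markers summed to 1.30 to 3.04 CPM per mouse, with Fgb at 0 and Ttr and Serpina1a below the floor. Alb (0.464 to 1.63 CPM) and Ahsg (0.554 to 1.38 CPM) were above the floor in all 10 mice. Apoa1 reached it in 1 mouse and Apoa2 in 7.

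The first sequences shown are the coding starts of Gstp1 and Gstp2, since they limit what any value of these genes can mean. Gstp1 (chr19:4035407-4037985, minus strand, GRCm38) and Gstp2 (chr19:4040285-4046023, minus strand) encode the pi class enzymes, and their coding sequences in GENCODE M21 were identical at 98.1% of positions, with 12 differences in 630 bases. The stretch with most of them is coding bases 1 to 90, with 6 differences, marked by capitals:
Gstp1: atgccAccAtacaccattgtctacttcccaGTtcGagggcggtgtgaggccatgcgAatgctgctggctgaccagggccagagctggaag
Gstp2: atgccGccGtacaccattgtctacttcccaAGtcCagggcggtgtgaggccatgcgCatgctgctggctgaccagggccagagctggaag
Coding bases 58 to 147 held 0 differences, so this 90-base stretch is the same in both genes:
Gstp1 and Gstp2: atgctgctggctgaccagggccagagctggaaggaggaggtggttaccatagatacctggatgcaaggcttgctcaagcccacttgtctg
A read of 50 bases from the second stretch cannot be assigned to either gene by its letters.

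The share of a gene's 50-base transcript stretches that occur in no other gene was computed for each member, because reads were 50 bases long. It was 66.3% for Gstp1 and 45.7% for Gstp2. The glucuronide genes of the Ugt1a locus share 1311 bases of exons at their 3′ end, and 47.9% of Ugt1a6a, 46.3% of Ugt1a7c and 20.2% of Ugt1a6b was unique. Ugt1a6a and Ugt1a6b were identical at 98.4% of coding positions, and Gsta1 and Gsta2 at 97.6%, with 9.5% and 50.2% of their stretches unique. Sult1a1 was 93.4% and Gstm1 81.1% unique. Gstm3 was 71.2% unique and shared 9.83% of its stretches with Gstm1. Values of Gstp2, Gsta1, Gsta2, Gstm3 and the Ugt1a genes are therefore uncertain, since the estimated counts divide shared reads among copies.

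**Figure D1:**
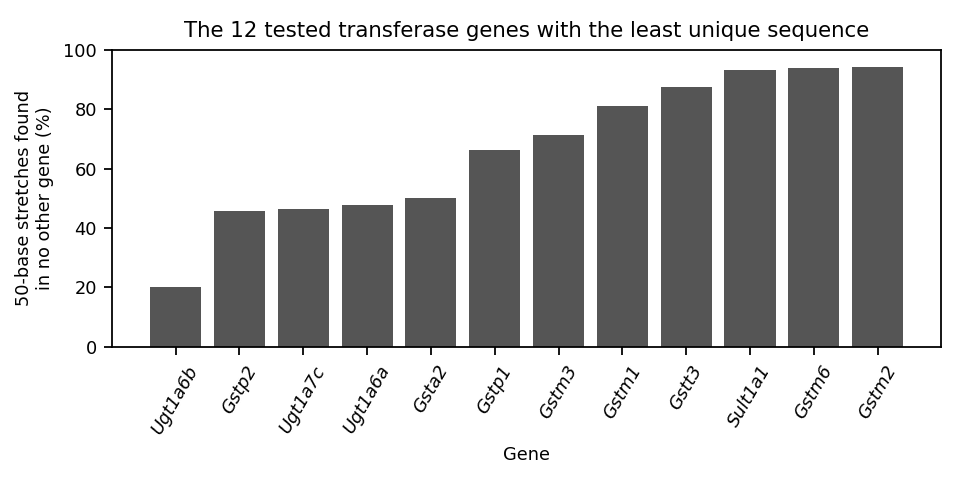
Share of 50-base transcript stretches found in no other gene (y axis, percent) for the 12 tested transferase genes with the lowest share (x axis). The 3 Ugt1a genes, Gstp2 and Gsta2 lie between 20.2% and 50.2%, and Gstp1 is at 66.3%.

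Promoter windows (250 bases before to 50 bases after the first transcribed base) came from RefSeq on GRCm38.p6, which held 71 of them for 59 of the 67 members. The ARE core TGACNNNGC, on either strand, was found in 4 of the 37 promoters of members that entered the tests (10.8%), in 0 of the 34 promoters of the other members, and in 12.4% of the 32851 promoters of the whole table. The 4 windows are shown with the matched core in capitals, as the binding site class for which glutathione transferase genes are known:
Gsta3, chr1:21240444-21240492, plus strand: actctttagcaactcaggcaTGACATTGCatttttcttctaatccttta
Gstm5, chr3:107895792-107895840, plus strand: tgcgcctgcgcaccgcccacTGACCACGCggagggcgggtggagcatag
Gstm7, chr3:107931715-107931763, minus strand: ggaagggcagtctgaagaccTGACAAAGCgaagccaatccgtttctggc
Mgst1, chr6:138140451-138140499, plus strand: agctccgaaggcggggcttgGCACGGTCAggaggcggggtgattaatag
The Mgst1 match is on the opposite strand of the gene. The cores begin 121, 42, 129 and 56 bases before the first transcribed base in that order.

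The HNF1 core GTTAAT, part of the site of a liver transcription factor, was found on either strand in 29.4% of the promoters of members that did not enter the tests, in 10.8% of those that did, and in 7.10% of all promoters. Bile acid and steroid sulfotransferase genes of the Sult2a family, near 0 in these lungs, gave 4 related windows:
Sult2a5, chr7:13623919-13623964, plus strand: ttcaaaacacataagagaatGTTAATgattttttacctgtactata
Sult2a4, chr7:13989670-13989715, minus strand: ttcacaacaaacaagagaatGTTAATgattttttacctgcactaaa
Sult2a3, chr7:14123074-14123119, minus strand: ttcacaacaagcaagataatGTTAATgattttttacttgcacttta
Sult2a6, chr7:14254916-14254961, minus strand: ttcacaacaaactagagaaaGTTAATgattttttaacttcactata
Among tested members the HNF1 core was in promoters of Gsta3, Ugt1a6a, Sult1a1 and Sult1d1. Ugt1a6a and Sult1a1 were the highest genes of their classes in these lungs. No promoter window of Sult2a8, a gene with 0 counts, held the core. The members that entered the tests had a median of 8 CpG pairs per promoter window, the others 1, and all promoters 7. The XRE core GCGTG was in 27.0% of the promoters of tested members, 11.8% of the others and 32.4% of all, and the TATA box TATAAA in 10.8%, 20.6% and 8.32%. None of these matches is a measured binding site, and related genes share sequence.

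Expression divided the 3 classes. At or above the floor of 3 counts in all 10 mice were 24 of 25 glutathione genes but only 3 of 21 glucuronide and 4 of 21 sulfate genes. A total of 26 members reached the floor in none of the mice, 13 glucuronide and 13 sulfate genes, and 15 of these had 0 counts throughout. The minimum count filter of the tests was passed by 30 members: 23 glutathione, 3 glucuronide and 4 sulfate genes. Levels below are RPKM (CPM per 1000 bases of merged exons), as mean ± SD over the 10 mice of both genotypes. Merged exons count every annotated isoform, so a gene with long minor isoforms is understated.

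Gstm1, a mu class enzyme and the highest member, stood at 294 ± 22.5 RPKM (n = 10), rank 132 of 18024 tested genes, and made up 34.0% of the summed RPKM of the glutathione class. Mgst1, the membrane-bound enzyme of the endoplasmic reticulum and mitochondria, followed at 117 ± 10.9 RPKM. Gstm2 (mu) was at 87.9 ± 5.16, Gstp1 (pi) at 72.2 ± 5.88 and Gsto1 (omega, which also reduces dehydroascorbate) at 58.8 ± 7.18 RPKM. Gstt1 (theta) at 49.3 ± 4.39 RPKM and Gsta4 (alpha, known for 4-hydroxynonenal, a lipid peroxidation product) at 48.0 ± 5.05 RPKM differed by less than their SD. These 7 genes made up 84.1% of the class.

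Gsta3, an alpha class gene whose enzyme in the mouse detoxifies aflatoxin epoxide, was at 33.3 ± 5.15 RPKM. Gstk1, the kappa enzyme of mitochondria and peroxisomes, at 25.3 ± 2.77 RPKM and the microsomal Mgst3 at 23.8 ± 2.25 RPKM were again within their SD of each other. Gstt3 was at 9.83 ± 0.798 RPKM and Gstz1, which isomerises maleylacetoacetate in tyrosine breakdown, at 8.75 ± 0.976 RPKM. The remaining tested glutathione genes ran from 6.24 RPKM (Gstm5) down to 0.404 (Gsto2) and 0.313 RPKM (Gstm3). Gsta1 (95 counts over all mice) and Gstt4 (11 counts) were too low to test.

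Neighbouring copies differed widely in level. The 7 Gstm genes lie within 149 kb of chromosome 3 (107895821 to 108044894) and ran from 0.313 to 294 RPKM, a ratio of 939. The lowest, Gstm3, shares stretches with the highest, Gstm1, so this ratio is uncertain. The 2 omega genes, Gsto1 and Gsto2, lie within 31 kb of chromosome 19 and differed by a ratio of 146. In the pi cluster of 24 kb on the same chromosome Gstp1 was 19.0 times Gstp3 (3.80 RPKM), with Gstp2 at 4.44 RPKM.

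Glucuronide transferase RNA came almost wholly from 1 locus in these lungs. Ugt1a6a, which conjugates small phenols, was at 10.8 ± 1.02 RPKM (n = 10) and made up 79.1% of the class. Ugt1a7c at 1.43 ± 0.188 and Ugt1a6b at 1.29 ± 0.355 RPKM differed by less than the SD, and the 3 together held 99.0%. Ugt1a1, the bilirubin enzyme of the same locus, had 29 counts over all mice. The 10 Ugt2 genes of chromosome 5 (86889767 to 87490871) had 28 counts together over all mice, with 6 of the 10 at 0, and the 2 Ugt3a genes had 3 counts.

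Sult1a1, the phenol sulfotransferase, was the highest sulfate gene at 36.9 ± 6.70 RPKM (n = 10), 83.9% of its class. Sult1d1, an enzyme for dopamine and other phenols, was at 4.27 ± 0.952 RPKM. It lies beside the Ugt2 cluster on chromosome 5, between Sult1b1, with 4 counts, and Sult1e1, the estrogen sulfotransferase, with 6 counts. Sult5a1 was at 1.81 ± 0.237 and the cholesterol sulfotransferase gene Sult2b1 at 0.700 ± 0.141 RPKM. The 8 Sult2a genes of chromosome 7 had 18 counts over all mice and the 2 Sult3a genes 0.

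The coefficient of variation of CPM over the 10 mice was lowest in Gstm2 (5.87%) and Gstm1 (7.66%). Among tested members it was highest in Gstm3 (40.6%), with 100 counts over all mice, followed by Ugt1a6b (27.5%), Gsta2 (23.5%), Gstp2 (22.5%) and Sult1d1 (22.3%). Of these 5, Ugt1a6b, Gsta2 and Gstp2 have near-identical copies, and Gstm3 is 71.2% unique. Sult1d1, with 2581 counts over all mice, shares 0 of its 50-base stretches with another gene.

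**Figure D2:**
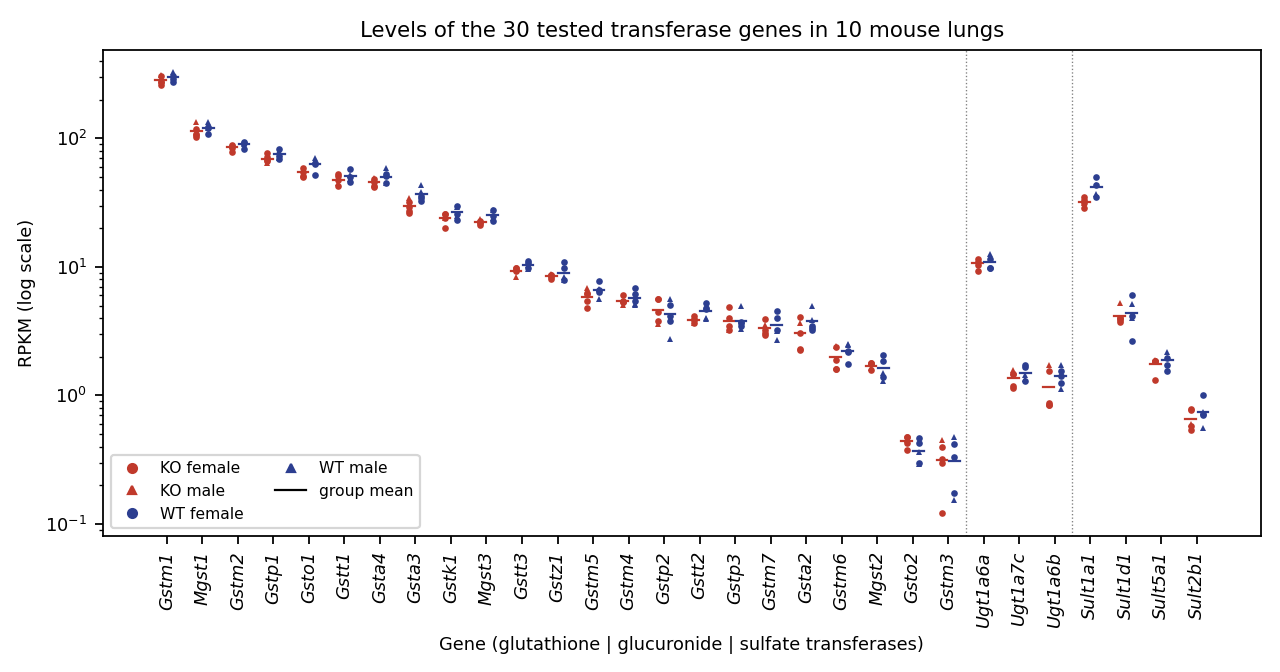
Expression of the 30 tested transferase genes in 10 lungs, in RPKM on a log scale (y axis); points are mice, colour is genotype, shape is sex, and short lines are group means. Gstm1 is highest at a mean of 294 RPKM and Gstm3 lowest at 0.313, and KO and WT points overlap in each gene but Sult1a1.

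The comparison of KO with WT asks what loss of Bpifb1 does to these genes in the unchallenged lung. By edgeR's quasi-likelihood test with sex as covariate and Benjamini-Hochberg adjustment over all 18024 genes, 0 of the 30 tested members passed an adjusted p under 0.05, where the background over all genes was 0.0222% (4 genes); limma-voom called 0 members too. At an unadjusted p under 0.05 there were 6 members, all lower in KO, against 17% of all genes in either direction and 8.04% lower. The log2 fold change (KO minus WT) was below 0 in 26 of 30 members and above 0 in 4, with a median of -0.107, where the median of all tested genes was -0.003. The median was -0.166 without WT replicate 4, -0.074 at the other end of the range as single mice were left out, and -0.042 (22 lower, 8 higher) with the offsets for GC content and length described further on. In simulated counts for this design the test recovered 24.5% of changes of 0.3 and 72% of changes of 0.5 on the log2 scale. Differences of the size seen here would therefore often be missed. The simulation drew each gene on its own, with no sex effect and no variation shared between genes. Changes of 0.3, 0.5, 1 and 2 were put into 48 to 50 genes each. The adjusted p depends on how many genes change, and only 4 passed in these mice. Recovery in these mice may therefore differ from the simulated one, and may be lower.

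Sult1a1 (ENSMUSG00000030711; chr7:126672865-126676432, minus strand) had the largest difference of the tested members. Its level in KO replicates 1 to 5 was 47.2, 50.3, 43.3, 52.7 and 47.4 CPM, and in WT replicates 1 to 5 53.1, 65.5, 55.9, 75.6 and 65.1 CPM. Each KO mouse lay below each WT mouse, by a narrow gap between KO replicate 4 and WT replicate 1. It was the 1 member of 30 whose ranges did not overlap, against 1.88% of all tested genes, 0.921% with KO below WT. The log2 fold change was -0.40 (SE 0.09, edgeR adjusted p = 0.121), between a KO mean of 48.2 ± 3.55 and a WT mean of 63.0 ± 8.89 CPM (SD over 5 mice). The DESeq2 Wald test called it, with an adjusted p of 0.00844. That test called 3 of the 30 members, Sult1a1, Gsta3 and Gstt2, all lower in KO, and 1.92% of all genes, 0.516% as lower. Its exons overlap those of Sgf29 on the opposite strand by 61 bases, and whether counting used strand is not given in the sources used here.

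The other sulfate genes differed less than their spread. Sult1d1 ranged from 9.15 to 12.9 CPM among KO and from 6.51 to 14.9 CPM among WT mice (log2 fold change -0.05, SE 0.19); without WT replicate 5 it was 0.19. The lowest and highest mice, WT replicates 4 and 5, were also lowest and, but for KO replicate 1, highest in summed cardiac muscle markers (407 and 1084 CPM; KO replicate 1 had 1096), and lowest and highest in adipocyte markers (73.6 and 354.6 CPM). Other mice departed from this order. KO replicate 5 had 313.4 CPM of adipocyte markers but 9.79 CPM of Sult1d1. WT replicate 3 had 617.9 CPM of cardiac muscle markers but 12.6 CPM of Sult1d1. The part of either marker list in the Sult1d1 value was not tested. Sult2b1 had a log2 fold change of -0.24 (SE 0.17) and Sult5a1 of -0.05 (SE 0.11). Summed over all 21 sulfate genes, KO mice had 64.2 to 73.8 CPM and WT mice 75.8 to 94.1, without overlap; Sult1a1 alone makes up 71.8% of this sum.

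Among the glutathione genes, 19 of 23 tested were lower in KO and 4 higher, with a median log2 fold change of -0.106. Gstt2 (theta; chr10:75831114-75837424, minus strand) was at 15.3, 15.1, 16.1, 16.3 and 17.1 CPM in KO and at 21.7, 16.7, 16.4, 19.5 and 19.9 CPM in WT replicates 1 to 5. The WT males, replicates 2 and 3, fell within the KO range, and the 3 WT females lay above it. The log2 fold change was -0.27 (SE 0.07, edgeR adjusted p = 0.125; DESeq2 adjusted p = 0.0404). Females alone gave -0.34, an alternative with 4 KO and 3 WT mice.

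Gsta3 (chr1:21240589-21265661, plus strand), whose promoter holds the ARE core shown above, was at 150.0, 126.7, 118.3, 139.6 and 114.3 CPM in KO and 153.9, 188.0, 167.1, 148.5 and 140.2 CPM in WT replicates 1 to 5. The KO male, at 150.0 CPM, exceeded 2 of the 3 WT females, and the 4 KO females lay below all WT mice. The log2 fold change was -0.24 (SE 0.06, edgeR adjusted p = 0.135; DESeq2 adjusted p = 0.0284), and it was the same in females alone. The other genes with an ARE core had log2 fold changes of -0.17 (Gstm5, SE 0.11), -0.11 (Gstm7, SE 0.13) and -0.05 (Mgst1, SE 0.06).

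Of the remaining members at an unadjusted p under 0.05, Gstt3 ranged from 31.9 to 37.9 CPM among KO and from 36.9 to 43.0 CPM among WT mice (-0.18, SE 0.05, edgeR adjusted p = 0.171). It shares 524 bases of exons with Gm20441 on the same strand, so its counts are uncertain. Mgst3 ranged from 23.3 to 25.6 and from 24.9 to 30.3 CPM (-0.18, SE 0.06, edgeR adjusted p = 0.212). Gsto1 ranged from 101.8 to 119.7 and from 104.3 to 142.8 CPM (-0.19, SE 0.07, edgeR adjusted p = 0.218). In these 3 genes the lowest WT mice lay within the KO range.

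**Figure D3:**
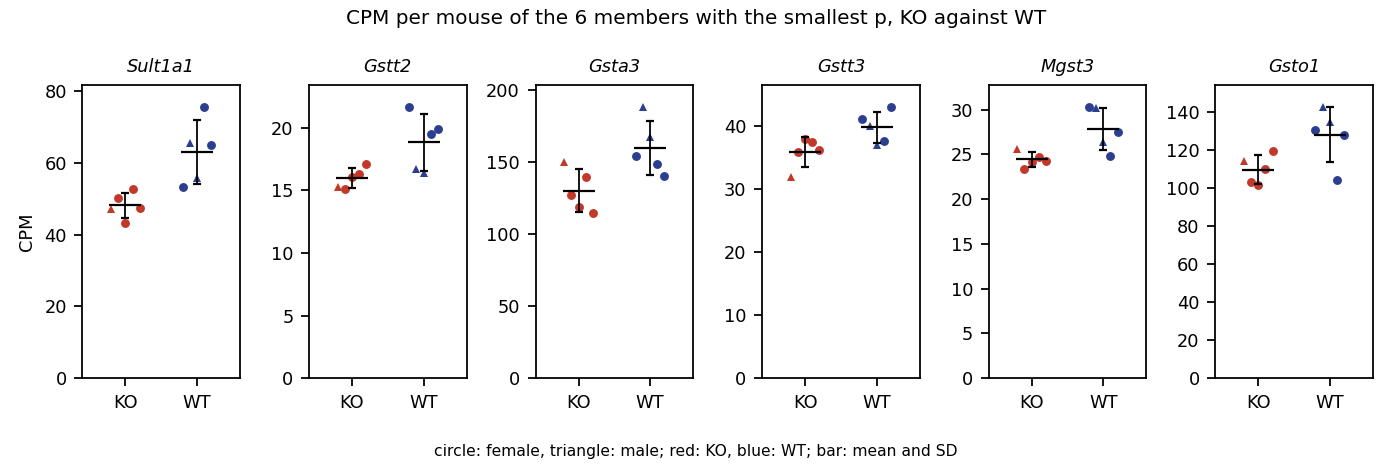
CPM per mouse (y axis, from 0) of the 6 tested transferase genes with the smallest p in the comparison of KO (red) with WT (blue); circles are females, triangles males, and bars the mean and SD of 5 mice. Only Sult1a1 shows ranges that do not overlap, from 43.3 to 52.7 CPM against 53.1 to 75.6 CPM.

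The most abundant members differed little by genotype. Gstm1 ranged from 380.5 to 461.2 CPM among KO and from 405.0 to 482.2 CPM among WT mice (-0.05, SE 0.06). Mgst1 gave -0.05 (SE 0.06), Gstm2 -0.08 (SE 0.06) and Gstp1 -0.13 (SE 0.07), or -0.12 when its reads were summed with those of Gstp2. The 4 members above 0 were Gsto2 at 0.22 (SE 0.20), Gstm3 at 0.07 (SE 0.39), Gstp2 at 0.06 (SE 0.19) and Mgst2 at 0.03 (SE 0.11), none of which passed. Ugt1a6a ranged from 39.9 to 49.3 CPM among KO and from 41.9 to 54.3 CPM among WT mice. Its log2 fold change was -0.01 (SE 0.07), and -0.03 when its reads were summed with those of all other Ugt1a members. Ugt1a7c had -0.11 (SE 0.12) and Ugt1a6b -0.24 (SE 0.21).

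Offsets for the GC content and length of the genes changed the median of the glutathione class more than that of the sulfate class. With offsets for both, added after the data were seen, the median of the glutathione genes moved from -0.106 to -0.018 (15 lower, 8 higher), with Gstm1 at 0.05, Gstm2 at 0.00 and Gstt1 at 0.01. The median of the sulfate genes was -0.184 with these offsets and -0.147 without; as single mice were left out it ran from -0.247 (without WT replicate 4) to -0.086 (without WT replicate 1), and that of the glutathione genes from -0.165 (without WT replicate 4) to -0.074. With the offsets Sult1a1 was at -0.34, Gsta3 at -0.29 and Gstt2 at -0.24. The glucuronide genes were at -0.03 (Ugt1a6a), -0.13 (Ugt1a7c) and -0.21 (Ugt1a6b). The part of GC content and length in the differences between genotypes was not tested.

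**Figure D4:**
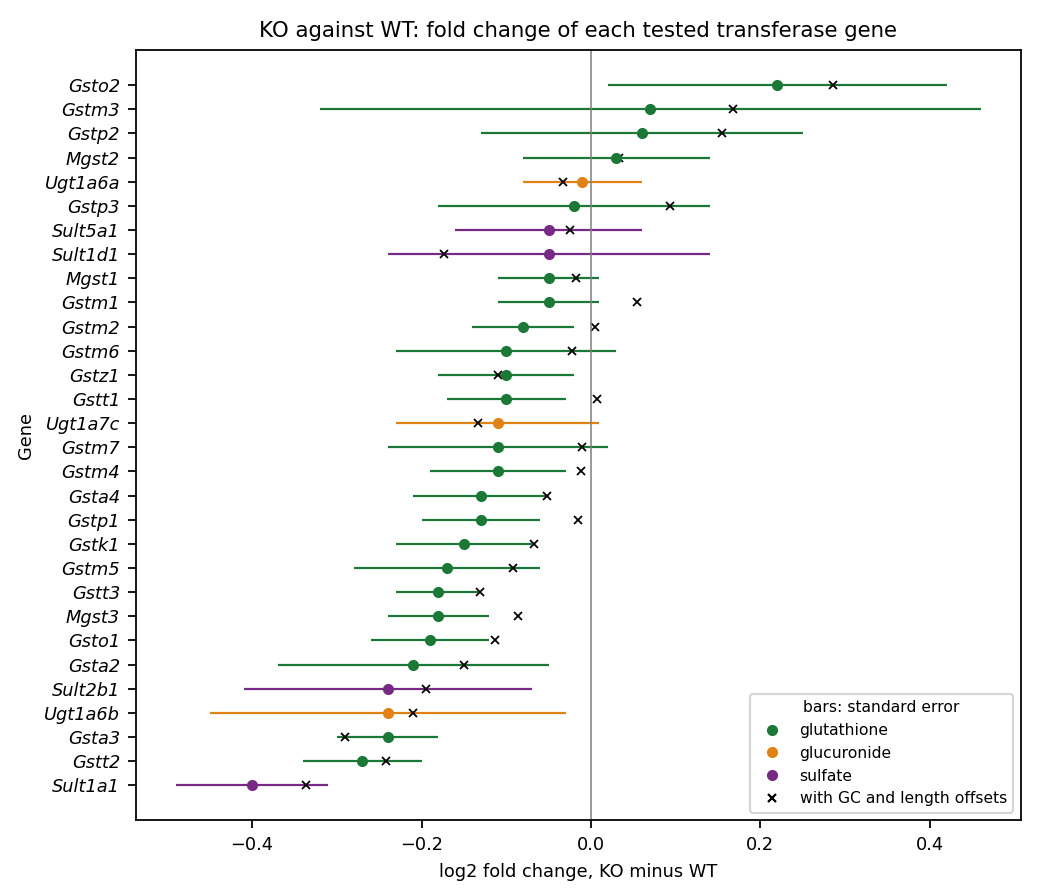
Log2 fold change, KO minus WT (x axis), of the 30 tested transferase genes (y axis, ordered by value); points are the edgeR estimates with bars of 1 standard error, colour is the class, and crosses are the values with GC and length offsets. The points of 26 genes lie below 0, and Sult1a1 is lowest at -0.40.

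Of 5 marker lists for secretory, ciliated and alveolar epithelium, 3 had a lower and 2 a higher mean in KO. Summed club cell markers were 31650 to 35500 (KO mean 32750) and 33000 to 41700 CPM (WT mean 36430), and alveolar type 2 markers 26750 to 30510 (mean 27950) and 27700 to 33540 CPM (mean 31290). Most of the club sum was Scgb1a1 (mean 21850 CPM in KO and 24040 CPM in WT). The log2 fold changes of all 10 club markers were below 0, from -0.25 (Cbr2) to -0.05 (Cckar). Alveolar type 1 markers summed to 4048 to 4444 (mean 4299) and 4301 to 5213 CPM (mean 4646). The higher means were in ciliated cell markers (331.9 in KO and 306.4 CPM in WT) and goblet and gland markers (207.8 and 196.2 CPM). Goblet and gland markers were at 329.9 CPM in KO replicate 5 and at 138.2 to 201.0 in the other KO mice. Ciliated log2 fold changes were above 0 in Foxj1 (0.23), Dnah5 (0.24), Ccdc39 (0.18) and Cfap126 (0.06). They were below 0 in Tekt1 (-0.09), Dynlrb2 (-0.08), Rsph1 (-0.04) and Tmem212 (-0.02). Of the alveolar markers, Lamp3 (0.01), Abca3 (0.06), Rtkn2 (0.07) and Cldn18 (0.01) were above 0 and the others below. In the other lists, the mean was higher in KO for endothelial, cardiac muscle and T cell markers. It was lower for basal, macrophage, fibroblast, smooth muscle, adipocyte, mesothelial, hepatocyte, red cell and B cell markers. The genotypes overlapped in each list. The part of these markers in the transferase values was not tested. In whole lung RNA, fewer cells of a type and less RNA per cell cannot be told apart. Summed over all 67 members, the KO range was 1496 to 1701 and the WT range 1603 to 1887 CPM, which overlapped.

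The genes around conjugation were read from 7 lists, in which 0 of 103 tested genes passed between genotypes by edgeR, DESeq2 or limma-voom, and 19 had an unadjusted p under 0.05 by edgeR. That is 18.4% of them, near the 17% of all genes at that threshold. The counts per list below are to be read against the same background. Of 23 genes for glutathione supply and use, 16 were lower and 7 higher in KO, with a median log2 fold change of -0.033 (-0.074 without WT replicate 4 to -0.017 without WT replicate 2), and 6 had an unadjusted p under 0.05, all lower, where 8.04% of all genes were: the peroxidase genes Gpx1 (-0.13), Gpx4 (-0.17) and Gpx7 (-0.22), the glutaredoxin gene Glrx (-0.17), the oxoprolinase gene Oplah (-0.14) and the dipeptidase gene Dpep1 (-0.29). Gclc and Gclm, the subunits of the enzyme that makes the glutathione precursor, had 0.11 (SE 0.07) and -0.03 (SE 0.04). Gpx1, the most abundant of these 6, averaged 303 ± 9.17 CPM with the loss of Bpifb1 and 330 ± 22.6 CPM without it (SD over 5 mice).

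Of 13 tested genes for sugar and sulfate donors, 6 were higher and 7 lower in KO, with a median of -0.057, which was 0.009 without WT replicate 2. Slc35d1, a transporter of nucleotide sugars into the endoplasmic reticulum, had 0.22 (SE 0.07) and Impad1, a phosphatase that clears the by-product of sulfation in the Golgi, 0.22 (SE 0.08), whereas Slc35b2, the Golgi transporter of PAPS, had -0.21 (SE 0.05). These 3 were the ones at an unadjusted p under 0.05.

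Among 13 tested sensing factors, the median was 0.057, and 0.008 without KO replicate 1. Keap1, the repressor of Nrf2, had -0.11 (SE 0.05), Nr1i3 (the receptor CAR) -0.13 (SE 0.06) and the Nrf2 partner Mafk 0.14 (SE 0.05), and Nfe2l2, which encodes Nrf2, 0.05 (SE 0.06). Of 21 Nrf2 target genes outside the transferases 17 were lower and 4 higher, with a median of -0.069 (-0.029 without WT replicate 1); Osgin1, at -0.25 (SE 0.08), was the 1 with an unadjusted p under 0.05. The 5 tested Ahr targets had a median of 0.103, which ran from -0.026 (without WT replicate 4) to 0.134 as single mice were left out.

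Other conjugating and deconjugating enzymes, 14 lower and 7 higher of 21, had a median of -0.077 (-0.046 without WT replicate 1). Those at an unadjusted p under 0.05 included the methyltransferase gene Inmt (-0.19), the acetyltransferase gene Nat2 (-0.23), the leukotriene C4 synthase gene Ltc4s (-0.34) and the lysosomal sulfatase gene Ids (0.25). Inmt averaged 1503 ± 151 CPM with the loss of Bpifb1 and 1699 ± 113 CPM without it. Of 12 tested exporters, 6 were higher and 6 lower, and Abcc4, which pumps conjugates out of cells, had 0.18 (SE 0.08).

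Sex was the second contrast of the design, read as the sex term of the same fit (3 males, 7 labelled females). Of the 30 members 0 passed an adjusted p under 0.05 by edgeR, where 0.583% of all genes did (105 genes). At an unadjusted p under 0.05 were 4 members higher in males and 2 lower, where 7.34% of all genes reached it as higher and 7.79% as lower. The log2 fold change (male minus female) was above 0 in 17 members and below 0 in 13. With KO replicate 5 left out, 0 members passed as well and 7 of 30 (23.3%) had an unadjusted p under 0.05, where 14.5% of all genes did in that fit.

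Gsta3 had the smallest p. Its level was 150.0, 188.0 and 167.1 CPM in the 3 males and 114.3 to 153.9 CPM (median 139.6) in the 7 females, so the lowest male, the KO one, lay within the female range. The log2 fold change was 0.27 (SE 0.07, edgeR adjusted p = 0.0925; DESeq2 adjusted p = 0.0145, where DESeq2 called 2.42% of all genes), and 0.25 without KO replicate 5 (edgeR adjusted p = 0.12). Within a genotype the males were the highest mice, 150.0 against at most 139.6 CPM in KO and at least 167.1 against at most 153.9 CPM in WT.

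The mu genes of chromosome 3 went in both directions by sex. Gstm1 was at 461.2, 482.2 and 464.7 CPM in males and 380.5 to 452.0 CPM in females, without overlap (log2 fold change 0.16, SE 0.06, edgeR adjusted p = 0.254). Gstm6 was at 4.80, 4.90 and 4.98 CPM in males and 3.20 to 4.76 CPM in females, also without overlap (0.30, SE 0.14, edgeR adjusted p = 0.33). Gstm4 was lower, at 8.61, 8.76 and 8.55 CPM in males and 9.06 to 11.6 CPM in females (-0.22, SE 0.09, edgeR adjusted p = 0.274). These 3 were the members whose ranges did not overlap between the sexes, against 4.81% of all tested genes (2.26% with males higher and 2.55% with males lower). Without KO replicate 5 the log2 fold changes were 0.14 (Gstm1), 0.28 (Gstm6) and -0.20 (Gstm4).

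Mgst1 was at 267.6, 270.3 and 241.7 CPM in males and 207.4 to 245.4 CPM in females (0.19, SE 0.07, edgeR adjusted p = 0.196). Ugt1a6a was at 48.3, 54.3 and 49.1 CPM in males and 39.9 to 49.5 CPM in females (0.17, SE 0.08, edgeR adjusted p = 0.316). Gstt2 went the other way, at 15.3, 16.7 and 16.4 CPM in males and 15.1 to 21.7 CPM in females (-0.21, SE 0.07, edgeR adjusted p = 0.191). In all 3 genes the sexes overlapped, and without KO replicate 5 the log2 fold changes were 0.19 (Mgst1), 0.18 (Ugt1a6a) and -0.21 (Gstt2). Summed club cell markers were 32510 to 41700 CPM in males and 31650 to 37060 CPM in females. By marker, log2 fold changes ran from -0.13 (Por) to 0.34 (Aldh1a1, edgeR adjusted p = 0.024, without overlap). Scgb3a2 (0.29), Cyp2f2 (0.20), Sec14l3 (0.10), Scgb1a1 (0.06) and Hp (0.06) were also above 0. Cbr2, Cckar and Cldn10 were below 0. The part of these markers in the sex differences was not tested. Among the list genes 1 passed, the PAPS transporter Slc35b2, lower in males by edgeR (-0.43, adjusted p = 0.00859). It passed without KO replicate 5 (-0.43, edgeR adjusted p = 0.0114) but not without KO replicate 1, the KO male (-0.38, edgeR adjusted p = 0.114), where 0 genes passed. Gclc was higher in males at 0.34 (edgeR adjusted p = 0.0743), which did not pass, and also at 0.34 without KO replicate 5. It did not pass in any of 10 fits with single mice left out. With other settings of test, normalisation, filter, covariate or offsets, Gclc did not pass in 5 of 8 and passed in the rest.

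**Figure D5:**
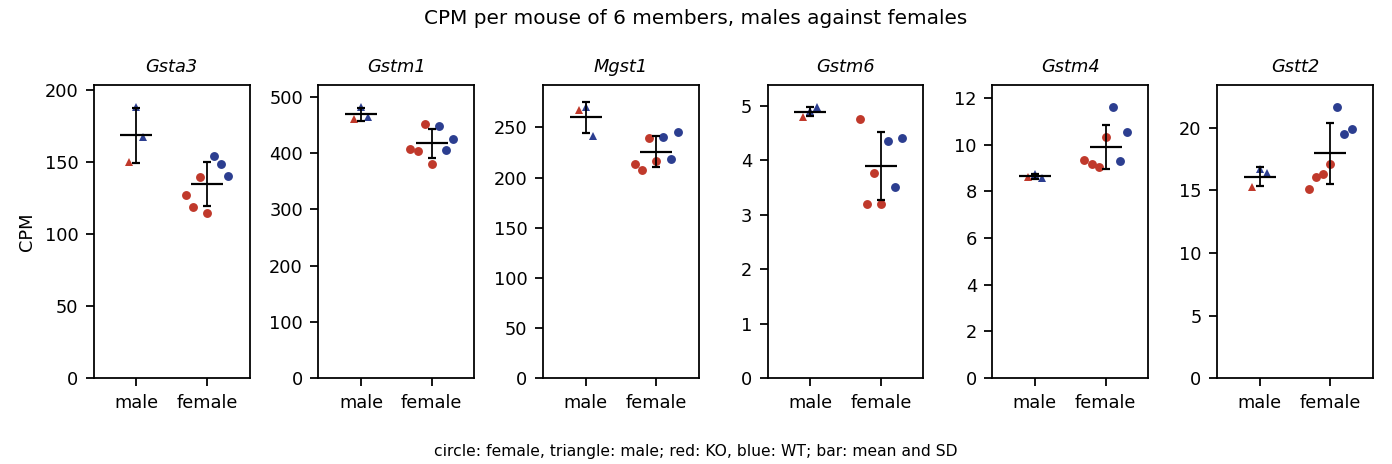
CPM per mouse (y axis, from 0) of 6 transferase genes in 3 males (triangles) and 7 labelled females (circles); red is KO, blue is WT, and bars are the mean and SD. Gstm1 and Gstm6 are higher and Gstm4 is lower in males without overlap, whereas Gsta3, Mgst1 and Gstt2 overlap.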

How the data were processed

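The authors deposited 1 table of estimated counts per gene and library, unscaled. At a tolerance of 0.01, 30.1% of the values above 0 were not whole. Per the labels' protocols, libraries came from a KAPA stranded mRNA kit and were read as single 50-base reads. The submitters' processing notes name FastQC, MultiQC, STAR 2.6.0, Salmon 0.9.1, mm10 and GRCm38; their settings are not given in the sources used here.

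Counts were rounded and matched by identifier to GENCODE M21 (47281 matched, 52 not; 0 columns lacked a sample). In R 4.3.3, edgeR 4.0.16 (TMM, filterByExpr with a minimum count of 10 and a total of 15, robust quasi-likelihood fit of genotype and sex) was the test. DESeq2 1.42.0 and limma 3.58.1 (voom) were alternatives. The test was run on simulated counts of 18024 genes, where 4.8% of calls were false. Members were named for an unadjusted p under 0.05, ranges that did not overlap, the highest levels, the 5 largest coefficients of variation, a mouse that stood apart, or a place in a named cluster, and list genes for an unadjusted p under 0.05 between genotypes; others (Ugt1a1, Sult1b1, Sult1e1, Gstz1, Mgst2, Gclc, Gclm, Nfe2l2 and members that share a motif or sequence) were chosen after their values were seen. A result for 1 list gene is not reported here. Members and lists were chosen with earlier results of these data known.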

Additional observations from a re-analysis of the deposited data

Results flagged for a closer look

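In 8 of 159 sets of mice, 1 mouse stood apart from its group by a gap that chance alone gives in about 1 of 20 sets, or 8.0 of 159. Among the members, Sult1d1 was at 12.86 CPM in KO replicate 1 (others in KO 9.147 to 9.788), Gstp3 at 4.475 CPM in WT replicate 2 (others in WT 2.97 to 3.401) and Sult5a1 at 5.841 CPM in KO replicate 5 (others in KO 8.126 to 8.259). Xist was at 1.776 CPM in KO replicate 5 among the females (others 273.4 to 406.6). Among summed markers, club cell markers were at 35500 CPM in KO replicate 4 (others in KO 31650 to 32510) and ciliated cell markers at 388.5 CPM in KO replicate 1 (312.3 to 331.4). Smooth muscle markers were at 1240 CPM in WT replicate 5 (898.7 to 973.8) and B cell markers at 530.4 CPM in KO replicate 2 (331.7 to 376.6).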

How the results depend on the processing

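For single genes and list medians, 1079 recomputed values kept their direction and side of the threshold, 19 reversed, 3 medians moved, 7 tests passed that had not, and 11 no longer passed, 9 of Bpifb1 (log2 fold change -6.97 to -6.35 as single mice were left out) and 2 of Slc35b2 by sex (without the covariate and without KO replicate 1). Genes called between genotypes (4) numbered 57 at an adjusted p under 0.1, 50 without the filter, 346 by the DESeq2 Wald test, 2 by limma-voom, 17 with GC and length offsets and 2 to 18 as single mice were left out (18 without WT replicate 3). Members called (0) were 3 by DESeq2, Sult1a1, Gsta3 and Gstt2. Genes called by sex (105) numbered 351 at an adjusted p under 0.1, 197 without the filter, 41 without the covariate, 436 by DESeq2, 246 with the offsets, and 0 to 195 as single mice were left out (0 without KO replicate 1, 46 without KO replicate 2, 43 without WT replicate 2, 195 without WT replicate 4); members called (0) were 1, Gsta3, at an adjusted p under 0.1 and by DESeq2. Reversed log2 fold changes (KO minus WT) were Gstm1 0.05, Gstm2 0.0 and Gstt1 0.01 with the offsets, and Gstm3 -0.15 and Ugt1a6a 0.02 in females alone. With single mice left out, Gstm3 ran from -0.15 to 0.32, Gstp2 from -0.02 to 0.21, Sult1d1 from -0.20 to 0.19, Sult5a1 from -0.12 to 0.02 and Ugt1a6a from -0.04 to 0.04; the cause was not tested. Sult1a1 stayed between -0.48 and -0.31 (edgeR adjusted p 0.0874 to 0.275). No paired analysis was run, because replicate numbers pair no animals. Cages, which held both genotypes, were not among the labels used here. Members under 3 counts per mouse limit what can be seen in 26 genes.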
